A study of Mus musculus with 9 samples.

Results

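The genes described here are 8 transcripts that mast cells are known for: the proteases Mcpt1, Mcpt2, Mcpt4, Cma1, Tpsb2 and Cpa3, and the IgE receptor subunits Fcer1a and Ms4a2. They were taken by symbol from a table of 21959 genes, all 8 were found, and 7 passed the expression filter and were tested (Fcer1a did not). The study measured poly-A RNA in the colon of wild-type mice in 3 groups of 3 libraries: mice with no treatment (Blank), mice given DSS, dextran sulfate sodium, a polymer that injures the colon lining and causes colitis (Model), and mice that received DSS as well as carbon dots prepared from lotus node charcoal (CDs). Carbon dots are carbon particles of nanometre size. The labels used here state no strain, age, sex, dose or time, and the series description calls the replicates biological.

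Mast cells are tissue leukocytes whose granules store proteases bound to heparin-like chains, together with histamine. They release them when antigen crosslinks IgE held by the high-affinity IgE receptor, which has an alpha chain that binds IgE (Fcer1a), a beta chain that amplifies the signal (Ms4a2) and a gamma chain shared with other receptors (Fcer1g). In the mouse, mast cells of the mucosa are known for the chymases Mcpt1 and Mcpt2, whereas mast cells of connective tissue, such as the submucosa, are known for the chymases Mcpt4 and Cma1, the tryptase Tpsb2 and the carboxypeptidase Cpa3.

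These transcripts were scarce. Libraries held 13868864 to 19940300 counted reads, of which the 8 genes together took between 46 reads in Blank 3 and 484 reads in Model 2. Levels are given in CPM, the share of a library's scaled total in parts of 1e+06. A library with 0 reads of a gene allows a level of up to 0.142 to 0.221 CPM (3 reads), by counting error alone. Colon epithelium markers were present in every library, with none of the 8 marker genes at 0. Some libraries held RNA of other organs: pancreatic acinar markers took 6.52% of the reads of Model 3, 0.776% of those of Model 1 and 0.0324% of those of CDs 1, beside at most 0.00215% elsewhere, and the prostate gene Tgm4 reached 600 CPM in Blank 2 and 56.3 CPM in Blank 3, beside 0.956 to 2.50 CPM in the others. The whole list of prostate and seminal gland markers summed to 1619 CPM in Blank 2, 292 CPM in Blank 3 and 83.4 CPM in Blank 1. In Model it summed to 162 to 249 CPM and in CDs to 150 to 287 CPM. By that sum only Blank 2 stood apart, and Blank 3 is counted as a carrier of prostate RNA by Tgm4 alone. Calls of named genes that changed without the carriers of pancreatic or prostate RNA are given with the results. In whole tissue, fewer mast cells and less RNA per mast cell cannot be told apart.

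Mcpt1, Mcpt2, Mcpt4 and Cma1 belong to the chymase cluster on chromosome 14, and the stretch before the start of transcription is shown for 3 of these, with that of Cpa3, because Mcpt1 and Mcpt4 have closely related sequences there although they are assigned to different mast cell classes. The sequences are from RefSeq (GRCm38.p6) and hold the 250 bases before the annotated start, written along the gene's strand. Of the 8 genes, 6 were matched in the promoter table. Capitals mark GATA words (the word AGATAA, the word AGATAG, the word TGATAA and the word TGATAG, each on either strand) and the word TATAAA (on either strand).
Mcpt1 (chr14:56017714-56017963, plus strand): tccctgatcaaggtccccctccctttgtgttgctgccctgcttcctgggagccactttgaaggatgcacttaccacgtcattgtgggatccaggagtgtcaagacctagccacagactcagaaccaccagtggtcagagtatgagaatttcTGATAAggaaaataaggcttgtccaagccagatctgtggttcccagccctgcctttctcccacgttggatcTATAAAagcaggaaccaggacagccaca
Mcpt4 (chr14:56062311-56062560, minus strand): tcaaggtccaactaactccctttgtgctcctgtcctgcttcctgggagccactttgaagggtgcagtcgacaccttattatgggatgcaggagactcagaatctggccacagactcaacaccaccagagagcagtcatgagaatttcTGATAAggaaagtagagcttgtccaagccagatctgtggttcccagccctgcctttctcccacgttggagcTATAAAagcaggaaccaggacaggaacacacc
Cma1 (chr14:55944676-55944925, minus strand): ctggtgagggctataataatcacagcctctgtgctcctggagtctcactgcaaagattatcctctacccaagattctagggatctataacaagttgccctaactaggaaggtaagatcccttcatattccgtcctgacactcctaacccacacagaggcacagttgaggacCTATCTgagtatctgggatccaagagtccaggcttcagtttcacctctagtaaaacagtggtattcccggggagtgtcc
Cpa3 (chr3:20242182-20242431, minus strand): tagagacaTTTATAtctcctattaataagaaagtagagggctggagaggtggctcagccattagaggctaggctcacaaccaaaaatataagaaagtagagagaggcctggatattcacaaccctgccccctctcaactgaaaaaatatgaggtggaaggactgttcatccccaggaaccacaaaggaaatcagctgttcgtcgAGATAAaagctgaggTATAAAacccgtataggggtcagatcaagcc

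The Mcpt1 and Mcpt4 windows were identical in 81.8% of aligned columns and shared an unbroken run of 53 bases, whereas every other pair among the 6 matched windows was identical in 47.3% to 53.7%. Both carry TGATAA (94 to 99 bases before the start in Mcpt1, 98 to 103 in Mcpt4) and TATAAA (23 to 28 and 27 to 32 bases before it). At least 1 GATA word stood in each of the 6 windows, including those of Fcer1a and Ms4a2, which have 1 and 3. Of all 32851 promoter windows of that length, 26.5% hold a GATA word, 7.94% hold TGATAA, which is among the GATA words, and 12.4% hold TATAAA, which 4 of the 6 hold. The words CACATG and CACGTG, not marked above, were searched too. CACATG stood in 1 of the 6 windows, that of Fcer1a, beside 12.3% of all windows, and CACGTG in 0 of the 6, beside 6.02%. GATA words are what factors of the GATA family, such as Gata2, a factor needed for the mast cell lineage, are known to bind. A match is a description of the letters and not a binding site.

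Reads could be assigned wrongly between such relatives. In the annotated transcripts, no run of 50 bases was shared among Mcpt1, Mcpt2, Mcpt4 and Cma1, the longest common run being 49 bases between Mcpt1 and Mcpt2. Mcpt4 shared 5.48% of its 50-base words with Cma2 and 0.661% with Mcpt9, which had at most 2 reads in any library, so Mcpt4 is uncertain to that extent.

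Both mucosal proteases were higher in every DSS-treated library than in Blank 2 and Blank 3, and Blank 1 differed from those 2. Mcpt1 (ENSMUSG00000022227; chromosome 14, 56255428 to 56257841 in the deposited table, which names no build), the chymase whose release marks intestinal mast cell activation, was at 5.46, 0.410 and 0.295 CPM in Blank 1, Blank 2 and Blank 3 (85, 6 and 4 reads), at 4.65, 5.27 and 5.49 CPM in the Model libraries and at 4.73, 1.97 and 2.72 CPM in the CDs libraries. Blank 1 thus stood among the Model libraries, while the other 2 Blank libraries were below every DSS-treated library. The log2 fold change of Model versus Blank was 1.30 ± 0.85 (SE; edgeR adjusted p = 0.238), and without Blank 1 it was 3.84 (edgeR adjusted p = 0.00245). Without Blank 2 and Blank 3, with Blank 1 left as the only untreated library, it was -0.09 (edgeR adjusted p = 0.913).

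Mcpt2 (ENSMUSG00000022226; chromosome 14, 56279498 to 56282099), the other mucosal chymase, was at 2.06, 0 and 0.221 CPM in Blank (32, 0 and 3 reads), at 2.69, 8.30 and 3.62 CPM in Model and at 3.64, 1.91 and 1.32 CPM in CDs. All 3 Model libraries were above all 3 Blank libraries, with Blank 1 nearest to them. Mcpt2 rose in Model, with a log2 change of 2.65 ± 0.95 (SE; edgeR adjusted p = 0.0490). That call was close to the threshold: the adjusted p lay between 0.0634 and 0.161 when Blank 2, Blank 3, Model 2, Model 3, CDs 2 or CDs 3 was left out, the fold change being 2.01 without Model 2. Without Blank 1 the fold change was 5.43 (edgeR adjusted p = 0.00747), and without Blank 2 and Blank 3 it was 1.26 (edgeR adjusted p = 0.322).

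The 3 connective tissue proteases set against the mucosal ones, Cma1, Mcpt4 and Tpsb2, did not pass the test in either direction. Cpa3, also named above for connective tissue mast cells, was called and is described below. Cma1 (ENSMUSG00000022225; chromosome 14, 56178908 to 56182132), a chymase that can convert angiotensin, was at 2.51, 5.33 and 2.21 CPM in Blank, at 0.726, 2.28 and 1.27 CPM in Model and at 2.30, 3.29 and 0.955 CPM in CDs. It was highest in Blank 2 and lowest in Model 1, and the Blank and Model ranges overlapped, since Model 2 exceeded Blank 3. Its log2 change of -1.20 ± 0.56 (SE; edgeR adjusted p = 0.108) was the only negative value among the 7 tested genes. It was -0.68 without Blank 2 and -0.56 without Model 1, Model 3 and CDs 1.

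Mcpt4 (ENSMUSG00000061068; chromosome 14, 56297086 to 56299770), a heparin-binding chymase, was at 0.514, 0.273 and 0 CPM in Blank (8, 4 and 0 reads), at 0.653, 1.33 and 1.0 CPM in Model and at 0.639, 2.51 and 0.661 CPM in CDs. Its Model libraries were all above its Blank libraries, with a log2 change of 1.87 ± 0.85 (SE; edgeR adjusted p = 0.102), which was 2.78 without Blank 1 and 0.97 without Blank 2 and Blank 3. Tpsb2 (ENSMUSG00000033825; chromosome 17, 25585279 to 25588072), a tryptase, was at 0.257, 0.137 and 0.442 CPM in Blank, at 0.0726, 1.80 and 0.737 CPM in Model and at 0.256, 1.55 and 0.882 CPM in CDs. Model 2 and CDs 2 were its highest libraries and Model 1, with 1 read, its lowest. Its log2 fold change was 1.71 ± 0.98 (SE; edgeR adjusted p = 0.18), which was 2.20 without Model 1 (edgeR adjusted p = 0.0492) and 0.57 without Model 2. When the pancreatic RNA carriers Model 1, Model 3 and CDs 1 were all left out, it was 2.67 (edgeR adjusted p = 0.00977). Model 2 then stood alone in its group, and its spread was taken from the other groups, as was that of Blank 1 above.

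**Figure D1:**
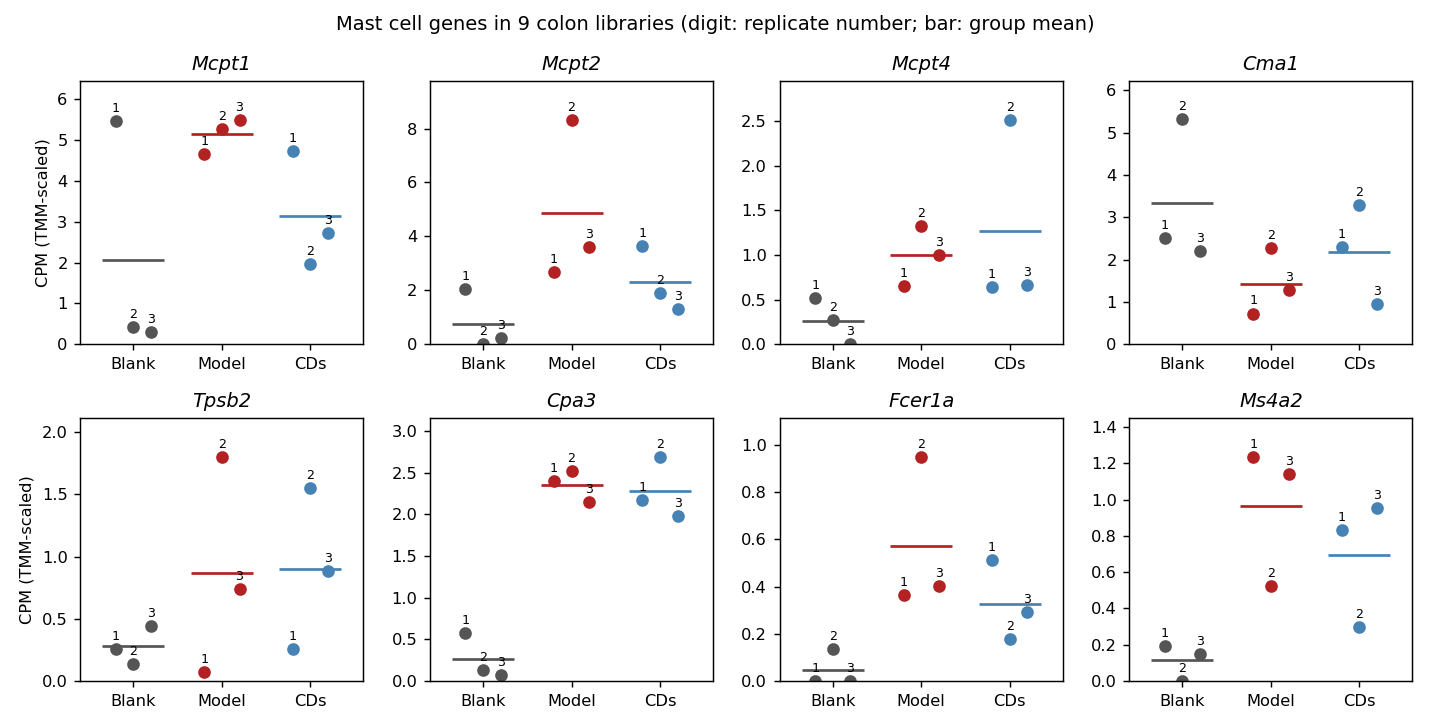
Level of each of the 8 genes in every library, in CPM on a linear axis that differs between panels, with the replicate number above each point and a bar at the mean of 3 libraries. Cpa3 separates Blank from both DSS-treated groups, Blank 1 lies with the DSS-treated libraries for Mcpt1, and Cma1 is highest in Blank 2.

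Cpa3 and both receptor subunits were higher in Model than in Blank in every library. Cpa3 (ENSMUSG00000001865; chromosome 3, 20269784 to 20296345), the carboxypeptidase of mast cell granules, was at 0.578, 0.137 and 0.0737 CPM in Blank (9, 2 and 1 reads), at 2.40, 2.51 and 2.14 CPM in Model and at 2.17, 2.69 and 1.98 CPM in CDs. The 6 DSS-treated libraries lay close together, and all were above Blank 1, the highest Blank library. Cpa3 rose in Model with a log2 change of 3.08 ± 0.51 (SE; edgeR adjusted p = 0.00199), which was 4.38 without Blank 1 and 2.01 without Blank 2 and Blank 3 (edgeR adjusted p = 0.00156 and 0.0392). Model 2 had the highest Cpa3 level of its group and no read of Cpa1, a carboxypeptidase of the pancreas. Without the libraries with pancreatic RNA, which leaves Model 2 alone in its group, the log2 change of Cpa3 was 3.17. The part of pancreatic RNA in the Cpa3 values was not tested.

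Ms4a2 (ENSMUSG00000024680; chromosome 19, 11592887 to 11601083), the beta chain, was at 0.193, 0 and 0.147 CPM in Blank (3, 0 and 2 reads), at 1.23, 0.522 and 1.14 CPM in Model and at 0.831, 0.299 and 0.955 CPM in CDs. Every DSS-treated library was above every Blank library, and Model 2 and CDs 2 were the lowest of their groups. Ms4a2 rose in Model with a log2 change of 2.96 ± 0.77 (SE; edgeR adjusted p = 0.0144), which was 3.59 without Blank 1 and, no longer past the threshold, 2.25 without Blank 2 and Blank 3 (edgeR adjusted p = 0.172) and 2.11 without the libraries with pancreatic RNA (edgeR adjusted p = 0.148).

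Fcer1a (ENSMUSG00000005339; chromosome 1, 173048851 to 173054781), the IgE-binding alpha chain, had 0, 2 and 0 reads in Blank, 5, 20 and 6 reads in Model and 8, 3 and 4 reads in CDs. In CPM the Model libraries were at 0.363, 0.949 and 0.402 and the CDs libraries at 0.511, 0.179 and 0.294. Model 2 supplied 20 of the 31 reads in Model, and all 6 DSS-treated libraries were above the highest Blank library, at 0.137 CPM. Summed over libraries, the ratio of Model to Blank was 13.6 (95% exact interval 3.47 to 118, counting error only), and that of CDs to Blank was 7.14 (1.66 to 64.3). With no expression filter, the log2 fold change of Model versus Blank was 3.48 ± 0.96 (SE; edgeR adjusted p = 0.0199). That of CDs versus Blank in the same fit was 2.64 ± 1.03 and was not called (SE; edgeR adjusted p = 0.0848).

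In all, edgeR called 3 of the 7 tested genes higher in Model and none lower, beside 24.5% of all 14921 tested genes called higher and 19.6% called lower, 44.1% in all. The Model libraries lay wholly above the Blank libraries for 5 of the 8 genes (Mcpt2, Mcpt4, Cpa3, Fcer1a and Ms4a2), beside 30.1% of all tested genes, and wholly below for none, beside 30.8%. Cma1 apart, the tested genes had too few reads in Blank to pass the filter there and passed it with the DSS-treated libraries, so these counts describe the genes and are no independent sign of a rise. With only the 6 Blank and Model libraries, 4 of the genes passed the filter and Cpa3 was the only one called, as it was without Blank 2 and Blank 3.

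**Figure D2:**
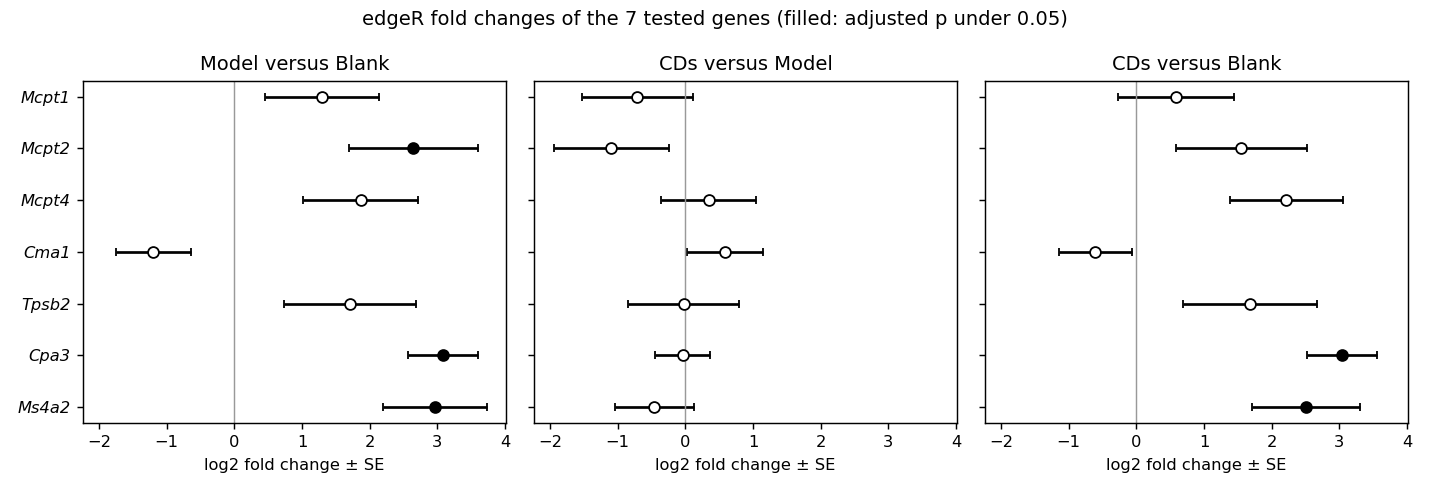
The log2 fold change of each of the 7 tested genes in the 3 comparisons, with its standard error, from edgeR. Filled points mark an adjusted p under 0.05: Mcpt2, Cpa3 and Ms4a2 in Model versus Blank, Cpa3 and Ms4a2 in CDs versus Blank, and none in CDs versus Model.

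Levels per transcript length (FPKM, read counts divided by gene length and library total) gave a different order of the gene means in each group, with spreads that mostly overlapped. In Blank, Cma1 had the highest mean, 2.98 ± 1.52 FPKM, followed by Mcpt1 at 1.96 ± 2.81 and Mcpt2 at 0.693 ± 1.03 FPKM (SD, n = 3 each), with spreads of Mcpt1 and Mcpt2 above their means. In Model, Mcpt1 at 5.10 ± 0.50 and Mcpt2 at 4.70 ± 3.12 FPKM led, followed by Cpa3 at 1.56 ± 0.19 and Cma1 at 1.34 ± 0.79 FPKM (SD, n = 3 each), and neither Mcpt1 and Mcpt2 nor Cpa3 and Cma1 were apart beyond their spread. The spread of Mcpt2 also overlapped those of Cpa3 and Cma1. In CDs the order was Mcpt1 at 3.22 ± 1.63, Mcpt2 at 2.25 ± 1.31, Cma1 at 2.06 ± 1.11 and Cpa3 at 1.54 ± 0.25 FPKM (SD, n = 3 each), and none of these differed from another beyond their spread. Tpsb2, Fcer1a and Ms4a2 had means under 0.59 FPKM in every group.

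The mucosal proteases outweighed the connective tissue proteases in every Model library but not in every library of the other groups. Mcpt1 and Mcpt2 together made up 84.5%, 74.7% and 77.7% of the summed FPKM of both classes in Model 1, Model 2 and Model 3. Cpa3 was counted in neither class. In Blank the mucosal share was 71.5%, 7.19% and 17.8%, and in CDs it was 74.0%, 37.5% and 66.0%. Blank 1 and CDs 1 thus had shares close to those of Model, whereas connective tissue proteases prevailed in Blank 2, Blank 3 and CDs 2. In Blank 2 and Blank 3 these were mostly Cma1, at 4.73 and 1.98 FPKM.

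Underneath these shares, the mucosal sum varied more than the connective tissue sum. Summed Mcpt1 and Mcpt2 were at 7.08, 0.391 and 0.488 FPKM in Blank, at 7.05, 13.8 and 8.60 FPKM in Model and at 8.78, 3.77 and 3.85 FPKM in CDs. Summed Mcpt4, Cma1 and Tpsb2 were at 2.83, 5.05 and 2.26 FPKM in Blank, at 1.29, 4.67 and 2.47 FPKM in Model and at 3.09, 6.30 and 1.99 FPKM in CDs, with ranges that overlapped among all 3 groups. That sum joined genes whose means moved in opposite directions. From Blank to Model the mean of Cma1, most of the sum in Blank, went from 2.98 to 1.34 FPKM. The means of Mcpt4 and Tpsb2 went from 0.229 to 0.912 and from 0.170 to 0.564 FPKM. In the main fit edgeR called none of these changes. On a log2 CPM scale that weights each gene equally, the mucosal minus connective tissue level was -0.06 ± 1.88 in Blank, 2.24 ± 0.53 in Model and 1.03 ± 1.26 in CDs (SD, n = 3 each). The value in Blank 1, 2.01, lay within the Model range of 1.83 to 2.84, so the groups overlapped, and no test was made of this score because its genes were chosen with results known.

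**Figure D3:**
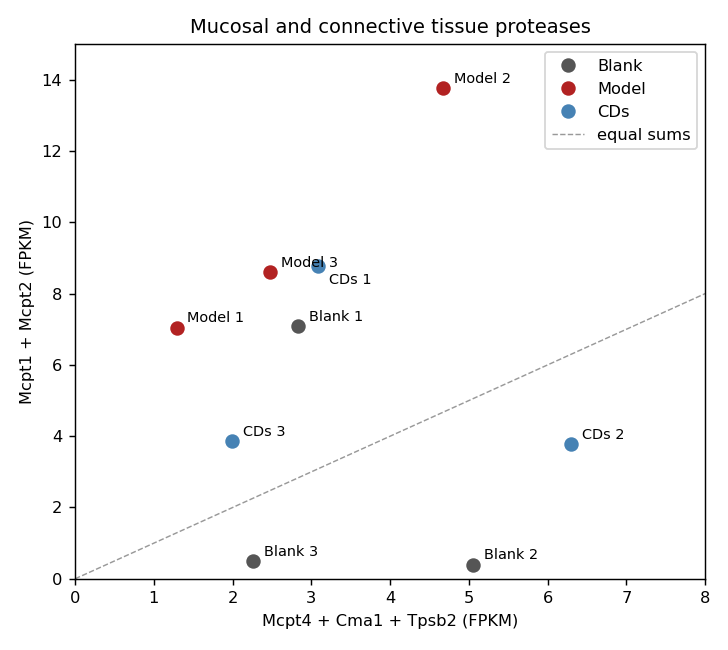
Summed FPKM of the mucosal proteases (vertical axis) against that of the connective tissue proteases (horizontal axis) in each of the 9 libraries, with a dashed line where both are equal. Blank 2, Blank 3 and CDs 2 lie below the line, and Blank 1 lies near Model 3 and CDs 1.

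Carbon dots were not accompanied by a detectable difference in these genes. In CDs versus Model edgeR called 0 of the 7 tested genes, with 0 at an unadjusted p under 0.05 and 0 called by DESeq2 or by limma, and the groups overlapped for all 8 genes. Over all genes edgeR called 0% (0 of 14921 genes), 5.28% had an unadjusted p under 0.05, and the groups were apart in 7.99%, higher in CDs in 3.23% and lower in 4.76%. DESeq2 called 51 genes. The mucosal chymases had negative values, Mcpt1 a log2 change of -0.71 ± 0.82 and Mcpt2 of -1.09 ± 0.85 (SE; edgeR adjusted p = 0.941 and 0.936), with CDs 1 at the level of the Model libraries. The value of Mcpt2 was -0.45 without Model 2 and -2.34 without Model 1, Model 3 and CDs 1 (edgeR adjusted p = 0.269). That of Mcpt1 ranged from -0.46 without CDs 2 to -1.17 without those 3 libraries. Cma1 was at 0.59 ± 0.56 (1.13 without Model 2) and Mcpt4 at 0.35 ± 0.70 on the same scale, and without CDs 2 the value of Mcpt4 was -0.63. Cpa3 had the narrowest error, -0.04 ± 0.40, Tpsb2 was at -0.02 ± 0.82 and Ms4a2 at -0.46 ± 0.58. Standard errors of 0.40 to 0.85 leave room for differences of such a size, so these values do not show that the groups were alike.

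In CDs versus Blank, which shares the Blank libraries with the first comparison and so is no independent check of it, Cpa3 and Ms4a2 rose, with log2 changes of 3.04 ± 0.51 and 2.50 ± 0.80 (SE; edgeR adjusted p = 0.00281 and 0.0375), beside 21.8% of all tested genes called higher and 13.8% called lower, 35.6% in all. The fold change of Cpa3 was 4.33 without Blank 1 and 1.97 without Blank 2 and Blank 3 (edgeR adjusted p = 0.00191 and 0.0562). The call of Ms4a2 was lost in 6 of the 9 fits that left out 1 library, including each Blank library, its value being 3.13 without Blank 1. It was also lost without Blank 2 and Blank 3 and without the libraries with pancreatic RNA (1.79 and 2.34, edgeR adjusted p = 0.296 and 0.0869). Mcpt4 was at 2.22 ± 0.84, which DESeq2 called (adjusted p = 0.0335) and edgeR did not (adjusted p = 0.0675), and Mcpt1, Mcpt2, Cma1 and Tpsb2 were at 0.59, 1.55, -0.61 and 1.68 with edgeR adjusted p between 0.207 and 0.614. Without Blank 1 both mucosal chymases were called higher in CDs, Mcpt1 at 3.12 and Mcpt2 at 4.33 (edgeR adjusted p = 0.00512 and 0.0222), whereas without Blank 2 and Blank 3 they were at -0.80 and 0.16. Tpsb2 was called at 2.13 without the libraries with pancreatic RNA (edgeR adjusted p = 0.0217). The value of Mcpt4 was 1.24 without CDs 2 and 1.31 without Blank 2 and Blank 3. The CDs libraries lay wholly above Blank for Mcpt4, Cpa3, Fcer1a and Ms4a2, 4 of 8 genes, beside 28.2% of all tested genes, and for none wholly below, beside 25.7%.

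Other genes of the mast cell pathway were grouped by role, 69 in all, of which 52 were tested and 27 were called higher and 2 lower in Model, with a median log2 fold change of 0.83 beside -0.03 for all tested genes, of which 24.5% were called higher and 19.6% lower. The counts of each list that follows stand beside the same shares. Some of these genes, such as Il10 with 10, 6 and 5 reads in Blank, passed the filter through the DSS-treated libraries. The counts and medians therefore describe the lists and are no independent sign of a rise. In CDs versus Model edgeR called 0 of the 52, with 6 at an unadjusted p under 0.05, beside 5.28% of all tested genes. Most of these genes are also used by other leukocytes, and neutrophil markers rose in 6 of 6 genes, with summed levels of 75.0 to 92.7 CPM in Blank, 392 to 2371 CPM in Model and 546 to 1180 CPM in CDs. Fibroblast markers rose in 6 of 6 genes, endothelium markers in 5 of 5, adipocyte markers in 5 of 6 and mesothelium markers in 3 of 5, and smooth muscle markers in 0 of 6. Colon epithelium markers had a lower mean sum in the DSS-treated groups, 10156 CPM in Model and 10722 CPM in CDs beside 16368 CPM in Blank. Their ranges overlapped, 12202 to 21222 CPM in Blank, 7232 to 14699 CPM in Model and 7431 to 14782 CPM in CDs. The part of other cells in the lists that follow was not tested.

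Of the IgE receptor signalling genes, 10 of 15 rose and none fell, with a median log2 change of 0.89. Fcer1g, the gamma chain, was at 15.0, 9.90 and 8.70 CPM in Blank and at 48.8, 71.9 and 67.0 CPM in Model, a log2 change of 2.48 ± 0.26 (SE; edgeR adjusted p = 3.36e-04). It was far above the alpha and beta chains in counts, and it also serves Fc receptors of macrophages and neutrophils. Lyn, the kinase that first phosphorylates the receptor, rose by a log2 change of 1.28 ± 0.21, the adaptor Lcp2 by 2.24 ± 0.32 and the adaptor Gab2 by 0.83 ± 0.13 (SE; edgeR adjusted p = 0.00184, 0.00101 and 0.00181).

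Of 11 tested genes for mediators and granules, 6 rose and none fell, the median being 0.48. Hdc, the enzyme that makes histamine, went from 1.09, 1.30 and 0.516 CPM in Blank to 14.01, 33.5 and 20.8 CPM in Model, a log2 change of 4.53 ± 0.63 (SE; edgeR adjusted p = 8.89e-04). Hdc is also expressed by neutrophils and basophils. Srgn, the core protein of granule proteoglycans in many leukocytes, rose by 2.61 ± 0.43, Alox5ap, needed for leukotriene synthesis, by 2.81 ± 0.53 (2.06 without Model 2) and Ptgs1, a cyclooxygenase, by 1.30 ± 0.18 on the log2 scale (SE; edgeR adjusted p = 0.00201, 0.00353 and 0.00101).

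Of 13 tested growth, lineage and surface genes 6 rose and 1 fell, with a median of 0.70 on the log2 scale. Kit, the receptor for stem cell factor on which mast cells depend, was the one that fell, from 122, 107 and 131 CPM in Blank to 73.1, 80.3 and 74.1 CPM in Model, a log2 change of -0.66 ± 0.10 (SE; edgeR adjusted p = 0.00144). The pacemaker cells of the gut wall, the interstitial cells of Cajal, also express Kit. In CDs Kit was at 48.3, 51.9 and 57.2 CPM, below every Model library, a log2 change of -0.53 ± 0.10 against Model that edgeR did not call (adjusted p = 0.891) and DESeq2 did (adjusted p = 0.00401). Il1rl1, the receptor for IL-33 on mast cells and several other cell types, rose from 9.83 to 15.0 CPM in Blank to 95.1, 478 and 286 CPM in Model, a log2 change of 4.60 ± 0.66 (4.02 without Model 2; SE; edgeR adjusted p = 0.00103), and was at 99.8, 31.3 and 45.7 CPM in CDs (CDs versus Model -2.28 ± 0.59, edgeR adjusted p = 0.891, DESeq2 adjusted p = 0.0144). Il1rl1 was called lower in CDs by edgeR when Model 1, Model 3 and CDs 1 were left out (-3.63, edgeR adjusted p = 0.00143), which leaves Model 2 alone in its group. Leaving out Model 2 gave -1.69. The transcription factor Mitf rose by 1.38 ± 0.21 and the integrin Itga2b by 2.12 ± 0.37 on the log2 scale (SE; edgeR adjusted p = 0.00143 and 0.00234). Mrgprb2, the receptor that marks connective tissue mast cells, had at most 2 reads in any library. Mrgprb1, in the same list and also not tested, had 0 reads in each Blank library, 2, 11 and 2 in Model and 1, 5 and 0 in CDs.

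Of the cytokines and partners, 5 of 11 tested genes rose and none fell, and their median was 0.80. Il33, the alarmin that binds Il1rl1, rose by 4.07 ± 0.30, Itgav, an integrin chain that takes part in activating TGF-beta, by 1.57 ± 0.16, Tgfb1, a cytokine known to induce Mcpt1 in cultured mast cells, by 1.66 ± 0.24, and Il10 by 3.15 ± 0.64 (2.24 without Model 2) on the log2 scale (SE; edgeR adjusted p = 1.76e-04, 3.34e-04, 0.00107 and 0.00508). Without Blank 2 and Blank 3, which leaves 1 untreated library, Il1rl1, Mitf, Itga2b, Srgn, Alox5ap, Gab2, Lyn, Tgfb1 and Il10 kept their sign but were no longer called (edgeR adjusted p between 0.0545 and 0.135), while Kit, Hdc, Ptgs1, Fcer1g, Lcp2, Il33 and Itgav were still called. Il9, a growth factor of mucosal mast cells, had no read in any library, and Il3 had 1 read in all.

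Among the other proteases of mast cells and basophils 8 of 9 genes were in the table and 2 passed the filter, Tpsg1 and Gzmb. The values of Gzmb are given further below. Tpsg1, a membrane-anchored tryptase, fell from 24.6, 24.6 and 29.7 CPM in Blank to 14.2, 6.55 and 9.24 CPM in Model, a log2 change of -1.40 ± 0.38 (SE; edgeR adjusted p = 0.0181). That call was lost without Blank 3, Model 2 or Model 3 (edgeR adjusted p = 0.0525, 0.0616 and 0.0626) and without Blank 2 and Blank 3 together (-1.30, edgeR adjusted p = 0.171), and the value was -2.01 without the libraries with pancreatic RNA. Tpsab1, another tryptase gene on chromosome 17, had at most 3 reads in any library.

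**Figure D4:**
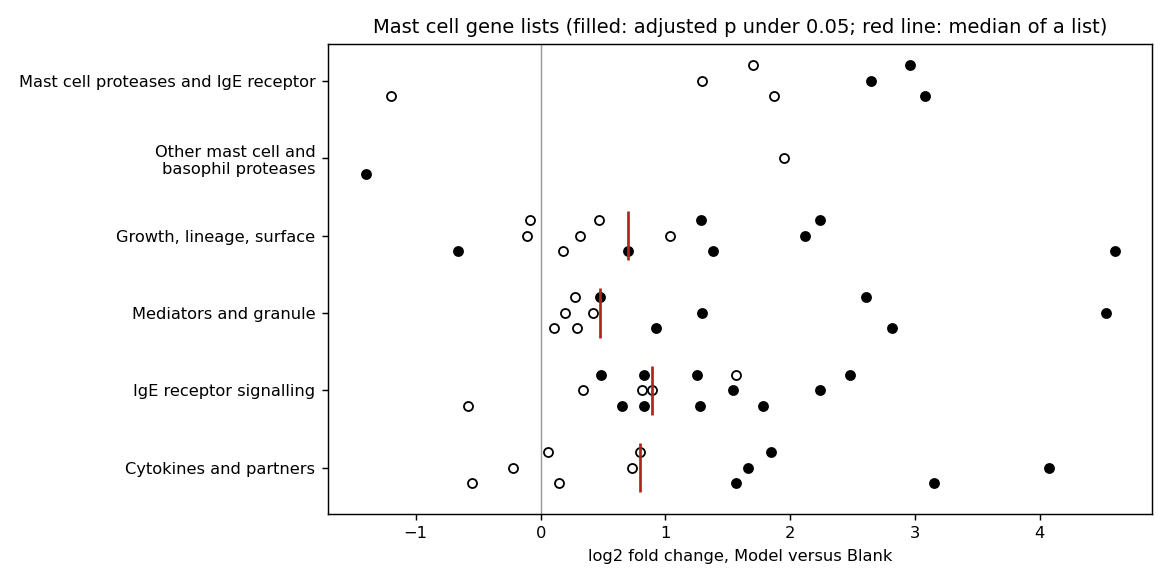
The log2 fold change of Model versus Blank for each tested gene of 6 mast cell lists, with filled points at an adjusted p under 0.05 and a red line at the median of the 4 lists with more than 10 tested genes. IgE receptor signalling genes rose in 10 of 15 tested members, and Kit is the filled point below 0 among growth, lineage and surface genes.

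Basophils also carry Cpa3, Fcer1a and Ms4a2. Their defining proteases were as scarce as Fcer1a and had more reads in the DSS-treated groups than in Blank. Mcpt8 had 1, 1 and 0 reads in Blank, 6, 0 and 14 in Model and 12, 4 and 8 in CDs, and Prss34 had 0 reads in each Blank library, 1, 3 and 4 in Model and 9, 2 and 8 in CDs. Summed by group, Mcpt8 had 2, 20 and 24 reads in Blank, Model and CDs, beside 2, 31 and 15 of Fcer1a. Over the whole basophil list of 5 genes the summed level was 59.7 to 97.4 CPM in Blank, 58.8 to 74.9 CPM in Model and 38.5 to 65.8 CPM in CDs, and 1 of 2 tested genes rose. Nearly all of that sum came from the 2 tested genes, Il3ra and Itga2. Mcpt8, Prss34 and Cd200r3 reached at most 0.938, 0.588 and 1.25 CPM in any library, so the sum does not follow the defining proteases. Eosinophil markers rose in 3 of 5 tested genes, with sums of 4.79 to 6.76, 25.5 to 45.5 and 26.8 to 72.2 CPM in Blank, Model and CDs, and Epx, their defining peroxidase, had at most 2 reads in any library. Dendritic cell markers rose in 4 of 6 genes, with sums of 23.1 to 32.7, 51.0 to 106 and 57.7 to 98.1 CPM. The part of these cells in the values of Cpa3, Fcer1a and Ms4a2 was not tested.

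Among the genes whose pattern over the 9 libraries was most like the mean of Mcpt1 and Mcpt2 were Gzmb, which encodes granzyme B of cytotoxic lymphocytes and lies in the same protease cluster (Pearson r = 0.97), Stx6, a membrane fusion protein (0.97), Ctla4, an inhibitory receptor of T cells (0.96), and Foxp3, the factor that defines regulatory T cells (0.95). Gzmb is also in the list of other mast cell and basophil proteases above. All are descriptions over libraries that share their group structure, and 780 of 14256 genes had an r of at least 0.8. Gzmb was at 8.74, 1.09 and 0.664 CPM in Blank and at 9.0, 19.8 and 12.1 CPM in Model, so that Blank 1 stood near Model 1 here too. Its log2 fold change of 1.95 ± 0.87 had an edgeR adjusted p of 0.0981, and without Blank 1 it was 3.95 (edgeR adjusted p = 0.00863). Stx6, at 0.26 (edgeR adjusted p = 0.0952), was called without Blank 1 too (0.39, edgeR adjusted p = 0.0361).

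Ctla4 was at 4.82, 0.683 and 0.811 CPM and Foxp3 at 1.74, 0.410 and 0.590 CPM in Blank, each with its highest untreated value in Blank 1. Both rose in Model, by log2 fold changes of 3.14 and 2.34 (edgeR adjusted p = 0.0151 and 0.0111), which were 4.66 and 3.23 without Blank 1, while the call of Ctla4 was lost without Blank 2, Blank 3 or Model 2 (edgeR adjusted p = 0.0523 to 0.0527), its value being 2.46 without Model 2. Without Blank 2 and Blank 3 together neither was called, Ctla4 at 1.97 and Foxp3 at 1.44 (edgeR adjusted p = 0.212 and 0.195). The mean of Mcpt4, Cma1 and Tpsb2 was most like Snapin (r = 0.93), Igsf8, Mtfr1l, Pnkd (each 0.92) and Extl2 (0.90). These 5 genes differed little between libraries, none of them was called in Model versus Blank (edgeR adjusted p between 0.157 and 0.846), and 72 genes had an r of at least 0.8. Extl2 was called at 0.60 without the libraries with pancreatic RNA (edgeR adjusted p = 0.0252).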

How the data were processed

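The labels' protocols describe Trizol extraction, oligo-dT capture and random priming with no step that marks strand; the counting's strand setting and the genome build are not stated there. Fastp 0.22.0, HISAT2 2.1.0 and HTSeq 0.9.1 appear in the submitters' processing notes. For 0 of the 8 genes did the deposited coordinates equal those of GENCODE M21 (GRCm38). Read counts and FPKM were deposited by the authors for every gene, per the file headers, and each FPKM equalled count over length and library total (100% of values, relative tolerance 1e-06). None of the 8 genes overlapped another gene of the table.

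From the deposited counts, edgeR 4.0.16 (R 4.3.3) fitted all 9 libraries at once with its quasi-likelihood test, TMM scaling and its expression filter. The two-sided p-values were Benjamini-Hochberg adjusted over 14921 genes, and called means an adjusted p under 0.05. CPM uses the TMM-scaled total, and SE is the fold change over the square root of F. The procedure was also run on simulated counts in which far fewer genes changed than were called here. That run therefore does not give the error of the calls made here. Alternatives were DESeq2 1.42.0, limma 3.58.1 on log2(FPKM + 0.1) and log2(FPKM + 1), other filters and scalings, and fewer libraries. Sample titles gave groups and replicate numbers. Within groups, libraries differed by more than sampling noise (chi-square per degree of freedom 16.0 to 166).

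The members and lists were chosen with earlier results of these data known. Named are the 8 genes, up to 4 called genes with the smallest p per list, defining markers of other cells, and the 5 genes most like each protease class (Pearson, mean of at least 1 CPM), of which 1 is not reported here. Tgm4, Il3, Il9, Mrgprb1, Mrgprb2, Tpsab1, Cma2 and Mcpt9 were chosen after their values were seen.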

Additional observations from a re-analysis of the deposited data

How the results depend on the processing

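Each comparison was repeated under 21 alternatives, fewer where a gene failed a filter, and values below are log2 changes unless called counts. Without Blank 2 and Blank 3, the prostate RNA carriers, 1536 genes were called in Model versus Blank and 465 in CDs versus Blank, members called fell from 3 to 1 and from 2 to 0, and Mcpt1 was at -0.085 and -0.80, Igsf8 at -0.044. Without Model 1, Model 3 and CDs 1, 1241 genes were called in CDs versus Model (DESeq2 on all libraries called 51), with Cma1 at -0.076 and Ms4a2 at 0.22. The fit of only the 6 libraries compared called 1 member against Blank in each comparison. In CDs versus Blank 1 member was called with the stricter filter and with limma on log2(FPKM + 1), and 4 on log2(FPKM + 0.1). Leaving out 1 library at a time gave 3398 to 5540 genes called in CDs versus Blank, with 1 to 3 members, and in Model versus Blank 2 to 4 members. It turned the sign of Igsf8 (-0.015 to 0.18) and Pnkd (-0.031 to 0.17) in Model versus Blank and of Mcpt4 (-0.63 to 0.67), Tpsb2 (-0.70 to 1.11) and Cpa3 (-0.18 to 0.050) in CDs versus Model. In CDs versus Model Tpsb2 was also at 0.29 and 0.036 with limma, with 0.1 and 1 added. The causes were not tested. Cpa3 was called in Model versus Blank under all 21 alternatives.

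The replicate numbers did not pair the libraries in Model versus Blank or CDs versus Model (correlations of same-numbered deviations -0.37 to 0.21, best with their own number in 0 of 6 and 2 of 6 libraries). In CDs versus Blank 5 of 6 libraries were best with their own number, with weak correlations of 0.063 to 0.17. With the number as a block, Model versus Blank called 3 members, Cpa3, Ms4a2 and Cma1 (-1.21, edgeR adjusted p = 0.0407), Mcpt2 missed the threshold (3.05, edgeR adjusted p = 0.0563), and Tpsb2 was at 0.12 in CDs versus Model. With 0 to 85 reads per gene in Blank, depth limits all values of these genes.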
